A study of Homo sapiens with 18 samples.

Results

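Genes of the NF-kB response, 30 symbols for inflammatory cytokines, chemokines, NF-kB subunits and effectors, were followed through 18 RNA libraries of a pair of head and neck carcinoma lines. They were taken as the rows of the deposited count table that carry these symbols, 30 of 41120, and all 30 were found. SCC154 is a squamous carcinoma line positive for human papillomavirus (HPV), and FADU (FaDu) a squamous carcinoma line negative for it. Both lines had been transduced with a hypoxia-fate mapping reporter (hfm), by which a cell that meets low oxygen exchanges red DsRed for green GFP fluorescence. Cells were grown as spheroids, freed with trypsin, sorted by colour and then kept in normoxic culture before RNA was taken, so no group was sampled under low oxygen. The 4 groups were post-hypoxic (GFP-positive) SCC154 (n = 4), non-hypoxic (DsRed-positive) SCC154 (n = 5), post-hypoxic FADU (n = 5) and non-hypoxic FADU (n = 4). Nothing in the labels gives the libraries of a group separate cultures or sorts. The p-values therefore reflect how these samples vary, and that variation may be technical. With 1 line per HPV status, HPV status and line cannot be told apart.

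NF-kB is a family of dimeric transcription factors held in the cytoplasm by inhibitor proteins such as the product of NFKBIA. Signals from interleukin-1, TNF or microbial products lead to destruction of the inhibitor, and the released dimers switch on chemokine, cytokine and feedback inhibitor genes. In squamous carcinomas the chemokines made this way are known to draw neutrophils and other leukocytes and to act back on the tumour cells.

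Levels are given as CPM (counts scaled to a common library size), scaled by trimmed-mean (TMM) factors. The library totals of 1654719 to 2503573 counts made 1 CPM worth 1.68 to 2.44 counts. A 3′ tag kit was used, which reads each transcript near its poly(A) end and not along its length. Epithelial identity was checked with 9 markers of squamous or general epithelium, all detected in every group. They summed to 1021 to 1185 CPM in SCC154 and 841 to 1100 CPM in FADU libraries. The highest was KRT6A in SCC154 and EPCAM in FADU. At an adjusted p under 0.05 in edgeR, 8 of the 9 (88.9%, beside 69.7% of all genes) differed between the post-hypoxic lines, 3 higher and 5 lower in SCC154. Between the non-hypoxic lines 7 (77.8%, beside 68.9%) differed, 3 higher and 4 lower. Of 11 leukocyte, 8 fibroblast and 6 endothelial markers, 0 passed the filter on low counts. The leukocyte list summed to 1.24 to 4.18 CPM in SCC154 and 1.38 to 6.49 CPM in FADU libraries, and the fibroblast list to 1.82 to 5.80 CPM in SCC154 and 1.65 to 5.06 CPM in FADU libraries. The endothelial list summed to 2.17 to 5.18 CPM in SCC154, all from CDH5, and 0 to 1.497 CPM in FADU, and its part in the results between the lines was not tested. PTPRC, the pan-leukocyte marker, had no count in 3 of the 4 groups. Some libraries stood apart within their group: post-hypoxic SCC154 replicate 3 and non-hypoxic SCC154 replicate 1 had the highest NFKBIA levels of all, and FADU replicate 1 had the highest CXCL1, CXCL2, CXCL8 and C3 levels of its line in both fractions.

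Of the 30 genes, 23 passed the filter (a level of about 4.63 CPM in at least 4 libraries) and were tested, together with 12291 genes in all. The filter was passed in both lines by 13 of them, in SCC154 alone by 8 (CXCL2, CXCL3, CCL20, IL6, IL32, C3, SAA1 and SAA2) and in FADU alone by 2 (CXCL1 and CSF1). A gene that passed through its level in 1 line alone was favoured to differ between the lines, so calls over the 23 are given as a description. The same holds wherever the test of such a gene between the lines is given below. The other 7 were CXCL5 (1 count in all 18 libraries), CXCL6, CCL2 and CSF2 (0 counts each), TNF (1 count), CSF3 (26 counts) and IL36G (29 counts). A total of 0 counts allows a mean level of up to 0.342 CPM in post-hypoxic SCC154, 0.284 CPM in non-hypoxic SCC154, 0.275 CPM in post-hypoxic FADU and 0.363 CPM in non-hypoxic FADU, by a floor of 3 counts per group that covers counting error only.

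The promoters of 4 CXC chemokine genes are shown because these genes, neighbours on chromosome 4 that share a kappa-B motif, were split between the lines. Each sequence is the 250 bases before the transcription start site in RefSeq (GRCh38.p14), read 5′ to 3′ on the strand of the gene. Capitals mark GGAATTTCC, the letters searched as the 9-base kappa-B motif. The windows are chr4:73869143-73869392 (plus strand) for CXCL1, chr4:74099196-74099445 (minus strand) for CXCL2, chr4:74038690-74038939 (minus strand) for CXCL3 and chr4:73740319-73740568 (plus strand) for CXCL8.
CXCL1: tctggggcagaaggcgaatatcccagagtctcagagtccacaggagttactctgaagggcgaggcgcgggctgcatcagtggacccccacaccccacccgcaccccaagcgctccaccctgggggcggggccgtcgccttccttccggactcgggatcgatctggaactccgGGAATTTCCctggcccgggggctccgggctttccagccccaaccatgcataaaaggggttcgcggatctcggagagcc
CXCL2: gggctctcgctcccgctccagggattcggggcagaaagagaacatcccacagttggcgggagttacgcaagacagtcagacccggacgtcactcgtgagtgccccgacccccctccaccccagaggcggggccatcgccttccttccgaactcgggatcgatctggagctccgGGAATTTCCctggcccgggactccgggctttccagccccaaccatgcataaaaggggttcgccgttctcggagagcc
CXCL3: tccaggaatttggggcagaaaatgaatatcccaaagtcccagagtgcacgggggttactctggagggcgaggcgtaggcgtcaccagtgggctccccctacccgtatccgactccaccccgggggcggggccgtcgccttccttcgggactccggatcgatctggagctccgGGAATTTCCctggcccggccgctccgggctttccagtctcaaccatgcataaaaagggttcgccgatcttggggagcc
CXCL8: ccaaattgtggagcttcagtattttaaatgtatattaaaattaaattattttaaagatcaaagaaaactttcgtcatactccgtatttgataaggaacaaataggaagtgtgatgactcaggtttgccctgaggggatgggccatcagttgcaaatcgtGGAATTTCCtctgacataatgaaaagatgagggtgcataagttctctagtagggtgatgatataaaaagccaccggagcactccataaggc
The motif starts 78, 77 and 78 bases before the start site in CXCL1, CXCL2 and CXCL3, and 91 bases before it in CXCL8. Over windows that add the first 50 transcribed bases, the CXCL1 promoter was 82.5% identical to that of CXCL3 and 69.8% to that of CXCL2. CXCL2 and CXCL3 were 73.7% identical, and CXCL8 was 43.1% to 44.2% identical to the other 3. The longest run shared letter for letter was 42 bases between CXCL1 and CXCL2, 37 between CXCL2 and CXCL3 and 25 between CXCL1 and CXCL3. CXCL8 also held the AP-1 letters TGANTCA 137 bases and the TATA box letters TATAAA 31 bases before its start, neither overlapping the kappa-B motif.

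Among the 300-base windows of 27305 genes, both strands searched, 0.56% held GGAATTTCC, against 9 of the 22 listed genes with a promoter entry (CXCL1, CXCL2, CXCL3, CXCL5, CXCL6, CXCL8, NFKBIA, NFKB1 and ICAM1). A looser 10-base kappa-B form, which overlaps the first one, was in 2.33% of all genes and in 12 of the 22. TGANTCA was in 9.37% of all genes and in 2 of the 22, and TATAAA in 14% and in 7 of the 22. The genes were listed as NF-kB targets, so these shares describe the list. A match is not a site in use, and CXCL1 had the motif at nearly the same distance from the start as CXCL2 and CXCL3 while its level went the other way between the lines. No promoter entry was used for CCL2, LIF, CSF1, CSF3, RELB, C3, SAA1 and SAA2.

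CXCL1, CXCL2 and CXCL3, the GRO chemokines that attract neutrophils through the receptor CXCR2, differed between the lines in opposite directions: CXCL1 was detected in FADU alone, and CXCL2 and CXCL3 were higher in SCC154. CXCL1 had 0 counts in all 9 SCC154 libraries, whether post-hypoxic or non-hypoxic. In FADU it stood at 124, 56.6, 48.1, 70.2 and 79.6 CPM in post-hypoxic libraries and at 128, 71.0, 53.9 and 71.7 CPM in non-hypoxic libraries. The lines did not overlap in any library. In bulk RNA, fewer cells with a transcript and less of it per cell cannot be told apart. Against the floor of 3 counts over the SCC154 group, CXCL1 was at least 216-fold lower in post-hypoxic SCC154 than in post-hypoxic FADU. Between the non-hypoxic groups it was at least 287-fold lower in SCC154, and both contrasts passed (adjusted p = 2.53e-09 and 8.87e-10, quasi-likelihood F test of edgeR, Benjamini-Hochberg adjusted over all genes tested, as everywhere here). CXCL1 passed the filter through FADU alone, so these tests were favoured to pass and are a description.

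CXCL2 and CXCL3 had the reverse pattern. Both passed the filter through SCC154 alone, so their tests are likewise a description. CXCL2 stood at 33.2, 30.4, 29.9 and 19.5 CPM in post-hypoxic SCC154, against 4.36, 3.68, 0.454, 2.48 and 1.76 CPM in post-hypoxic FADU. Non-hypoxic libraries held 34.1, 18.4, 40.8, 24.7 and 29.9 CPM in SCC154, against 9.03, 3.05, 2.50 and 3.24 CPM in FADU. Every SCC154 library was above every FADU library. The log2 fold change of SCC154 over FADU was 3.48 (SE 0.36, adjusted p = 8.97e-09 by edgeR) in post-hypoxic cells. Between the non-hypoxic groups the value was 2.70 (SE 0.34, adjusted p = 2.42e-07), and 3.30 without FADU non-hypoxic replicate 1.

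CXCL3 stood at 42.2, 44.7, 37.7 and 26.8 CPM in post-hypoxic SCC154, against 3 counts in all 5 post-hypoxic FADU libraries (0.284 ± 0.263 CPM). Its non-hypoxic levels were 62.7, 37.7, 38.0, 42.1 and 34.8 CPM in SCC154, against 0.475, 0.871, 2.00 and 0.539 CPM in FADU. The lines again did not overlap. The ratio of post-hypoxic SCC154 to post-hypoxic FADU was 137 (exact 95% counting interval 46.3 to 665), and the contrast passed (adjusted p = 4.58e-13 by edgeR). In non-hypoxic cells the log2 fold change was 5.39 (SE 0.35, adjusted p = 3.03e-12 by edgeR).

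As a share of the summed counts of the 3 genes, CXCL1 made up 95.2% of 1556 counts in FADU (exact 95% interval 94.0% to 96.2%, for counting error in the pooled counts only) and 0 of 1336 counts in SCC154, which allows up to 0.225%. The FADU share lay between 92.3% and 99.1% in single libraries, a wider range than that interval. In SCC154 the counts were divided between CXCL3 (58.5%) and CXCL2 (41.5%), which in FADU had 0.707% and 4.11%. The 3 genes lie within 1 stretch of chromosome 4 (GENCODE v29 on GRCh38, the hg38 assembly): CXCL1 at 73869393-73871242 on the plus strand, CXCL3 at 74036589-74038807 and CXCL2 at 74097035-74099293 on the minus strand. Between CXCL1 and CXCL3 lie the protein-coding genes PF4, PPBP and CXCL5, of which PF4 had 0 counts and PPBP and CXCL5 had 1 count each over all 18 libraries. The pseudogene HNRNPA1P55, also between them, had 45 counts in SCC154 and 52 in FADU. In the last 300 transcript bases, 18.3% of the 50-base words of CXCL1 were shared with CXCL2 and none with CXCL3, and how the authors counted reads matching both is not given in the sources used here.

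**Figure D1:**
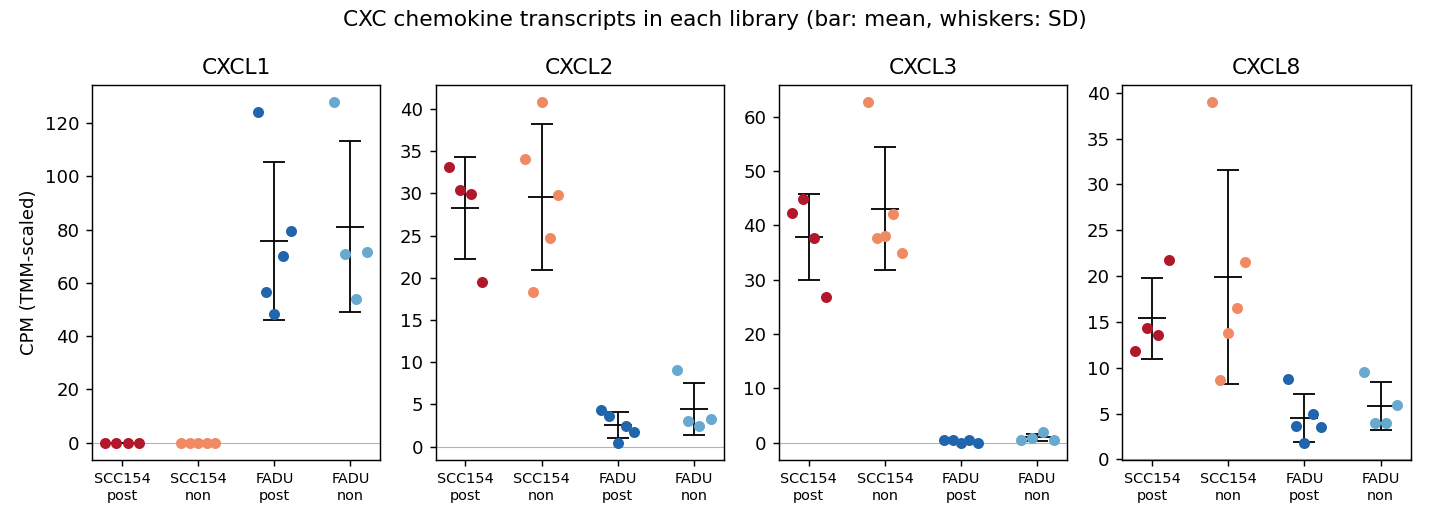
CPM (vertical axis, linear, scaled separately in each panel) of CXCL1, CXCL2, CXCL3 and CXCL8 in post-hypoxic and non-hypoxic SCC154 and FADU libraries; each point is 1 library, the bar is the group mean and the whiskers are the SD. CXCL1 is at 0 in all 9 SCC154 libraries and at 48.1 CPM or more in every FADU library, while CXCL2 and CXCL3 are higher in every SCC154 library than in any FADU library.

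CXCL8 (interleukin-8), which draws neutrophils and opens the same cluster (73740506-73743716, plus strand), was higher in SCC154. It averaged 15.4 ± 4.39 CPM in post-hypoxic SCC154 (SD, n = 4) and 4.54 ± 2.59 CPM in post-hypoxic FADU (SD, n = 5), and the libraries did not overlap. The log2 fold change was 1.78 (SE 0.41, adjusted p = 0.000479 by edgeR). In non-hypoxic cells the means were 19.9 ± 11.6 CPM in SCC154 (SD, n = 5) and 5.84 ± 2.62 CPM in FADU (SD, n = 4), and the log2 fold change was 1.77 (SE 0.39, adjusted p = 0.000373). Here the groups overlapped, since the lowest SCC154 library had 8.70 CPM and the highest FADU library 9.51 CPM.

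CCL20, which draws dendritic cells and Th17 cells through CCR6, was the only CC chemokine of the list with more than 0 counts. Its libraries stood at 7.37, 9.55, 4.10 and 7.26 CPM in post-hypoxic SCC154, against 2 counts in post-hypoxic FADU, both in replicate 5. The ratio was 37.3 (exact 95% counting interval 9.90 to 315; adjusted p = 9.02e-06 by edgeR). In non-hypoxic cells the mean was 7.38 ± 5.44 CPM in SCC154 (SD, n = 5), against 4 counts in FADU, and the log2 fold change was 3.79 (SE 0.71, adjusted p = 5.43e-05 by edgeR). It was 5.05 without FADU non-hypoxic replicate 2, and in both fractions every SCC154 library was above every FADU library.

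Interleukin-1 transcripts were abundant in both lines and higher in SCC154. IL1B, the secreted form that needs cleavage by an inflammasome caspase, stood at 254, 179, 259 and 235 CPM in post-hypoxic SCC154, against 69.8, 69.9, 64.0, 64.4 and 51.0 CPM in post-hypoxic FADU. The non-hypoxic libraries had 117, 221, 213, 293 and 259 CPM in SCC154, against 70.8, 52.7, 63.9 and 60.4 CPM in FADU. No SCC154 library was within the FADU range, and the lowest were the replicates with the highest NFKBIA, post-hypoxic replicate 3 and non-hypoxic replicate 1. The log2 fold change was 1.86 (SE 0.18, adjusted p = 3.68e-09 by edgeR) in post-hypoxic cells and 1.84 (SE 0.19, adjusted p = 1.08e-08) in non-hypoxic cells. Without those 2 libraries in turn it was 1.97 and 2.00.

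IL1A, an alarmin that acts without secretion when cells are damaged, averaged 43.0 ± 16.1 CPM in post-hypoxic SCC154 (SD, n = 4) and 20.0 ± 7.80 CPM in post-hypoxic FADU (SD, n = 5). The log2 fold change was 1.11 (SE 0.27, adjusted p = 0.000848 by edgeR), with overlap between 25.7 CPM in the lowest SCC154 library and 27.7 CPM in the highest FADU library. Among non-hypoxic groups it was 0.84 (SE 0.28, adjusted p = 0.0115), again with overlap (21.2 CPM in the lowest SCC154 and 23.2 CPM in the highest FADU library). IL1A and IL1B lie next to each other on chromosome 2 (112773915-112784590 and 112829751-112836903, both on the minus strand). IL36G, an epidermal interleukin-1 relative on the same chromosome, had 5 and 7 counts in post-hypoxic and non-hypoxic SCC154, and 11 and 6 counts in post-hypoxic and non-hypoxic FADU. It was too low to be tested.

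IL6, a cytokine that signals through STAT3, was low in SCC154 and near the limit of detection in FADU. It had 2.05, 5.37, 6.15 and 4.54 CPM in post-hypoxic SCC154, against 1.63, 0, 0.454, 0.413 and 0 CPM in post-hypoxic FADU. The groups did not overlap, and the log2 fold change was 3.13 (SE 0.54, adjusted p = 1.81e-05 by edgeR), or 4.02 without FADU post-hypoxic replicate 1. In non-hypoxic cells it was 2.70 (SE 0.54, adjusted p = 0.00013). LIF, a relative of IL6 that shares its receptor subunit, did not pass in post-hypoxic cells (log2 fold change -0.17, SE 0.27, adjusted p = 0.592 by edgeR), with 8.49 ± 2.13 CPM in SCC154 and 9.43 ± 1.104 CPM in FADU (SD, n = 4 and 5).

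In non-hypoxic cells LIF was higher in SCC154, at 13.2 ± 3.35 CPM (SD, n = 5) against 8.27 ± 3.24 CPM in FADU (SD, n = 4), with a log2 fold change of 0.69 (SE 0.27, adjusted p = 0.0252 by edgeR). That call was lost without SCC154 replicate 1 (adjusted p = 0.072), SCC154 replicate 5 (0.0534) or FADU replicate 2 (0.131 by edgeR). CSF1, the growth factor of macrophages, did not pass in either fraction: its log2 fold change was -0.85 (95% interval -1.99 to 0.29) in post-hypoxic and 0.19 (-0.92 to 1.30) in non-hypoxic cells. CSF3, the growth factor of granulocytes, had 15 counts in post-hypoxic SCC154 and 11 in non-hypoxic SCC154, and 0 in every FADU library. It was thus at least 6.22-fold and at least 2.87-fold higher in SCC154, without a test.

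The tumour necrosis factor gene TNF had 1 count in all. TNFAIP2, a TNF-induced gene of membrane protrusions, stood at 396, 638, 378 and 378 CPM in post-hypoxic SCC154, against 353, 321, 350, 361 and 352 CPM in post-hypoxic FADU. Although the groups did not overlap, the log2 fold change of 0.36 (SE 0.14, adjusted p = 0.0206 by edgeR) rested on replicate 3, without which it was 0.15 (adjusted p = 0.236). In non-hypoxic cells it was 0.14 (SE 0.14, adjusted p = 0.358).

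TNFAIP3 (A20), a ubiquitin-editing brake on NF-kB, had log2 fold changes of 0.00 (95% interval -0.58 to 0.58, adjusted p = 0.998 by edgeR) in post-hypoxic and 0.79 (SE 0.29, adjusted p = 0.0213) in non-hypoxic cells. Its non-hypoxic mean was 64.8 ± 12.0 CPM in SCC154 (SD, n = 5) and 37.7 ± 17.3 CPM in FADU (SD, n = 4), and without FADU replicate 2 the call was lost (0.52, adjusted p = 0.1 by edgeR). NFKBIA, which encodes the inhibitor IkB-alpha and is itself an NF-kB target, was higher in SCC154. It had 493, 840, 480 and 586 CPM in post-hypoxic SCC154, against 329, 331, 343, 328 and 393 CPM in post-hypoxic FADU. For the non-hypoxic fraction the levels were 860, 558, 580, 461 and 545 CPM in SCC154, against 386, 343, 353 and 335 CPM in FADU.

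All 9 SCC154 libraries were above all 9 FADU libraries for NFKBIA. Its log2 fold change was 0.80 (SE 0.15, adjusted p = 7.37e-05 by edgeR) in post-hypoxic cells and 0.76 (SE 0.16, adjusted p = 0.000158) in non-hypoxic cells. Without post-hypoxic SCC154 replicate 3 the first was 0.59, and without non-hypoxic SCC154 replicate 1 the second was 0.60.

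The subunits went in different directions. RELA (p65), which carries the main activation domain, was lower in SCC154, with 127, 136, 134 and 121 CPM in post-hypoxic SCC154 against 188, 187, 237, 230 and 185 CPM in post-hypoxic FADU. RELA in non-hypoxic libraries stood at 122, 128, 120, 118 and 114 CPM in SCC154, against 175, 202, 248 and 258 CPM in FADU. No library overlapped between the lines, and within FADU replicates 3 and 4 were above the others in both fractions. The log2 fold change was -0.67 (SE 0.11, adjusted p = 1.73e-05 by edgeR) in post-hypoxic cells and -0.88 (SE 0.11, adjusted p = 3.32e-07) in non-hypoxic cells.

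RELB, the subunit of the alternative pathway, was higher in SCC154. It had 14.7, 10.1, 27.1 and 23.1 CPM in post-hypoxic SCC154, against 5.45, 3.68, 9.08, 7.84 and 5.28 CPM in post-hypoxic FADU. The non-hypoxic levels were 16.8, 16.4, 20.1, 33.4 and 16.2 CPM in SCC154, against 1.90, 3.05, 2.99 and 4.85 CPM in FADU. The lines did not overlap, and the log2 fold change was 1.59 (SE 0.31, adjusted p = 7.55e-05 by edgeR) in post-hypoxic and 2.69 (SE 0.36, adjusted p = 6.45e-07) in non-hypoxic cells.

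NFKB1, the precursor of p50, differed by -0.05 (95% interval -0.32 to 0.22, adjusted p = 0.74 by edgeR) in post-hypoxic cells and by 0.49 (SE 0.14, adjusted p = 0.00305) in non-hypoxic cells. NFKB2, the precursor of p52, did not pass in either fraction (0.29 and 0.53, adjusted p = 0.313 and 0.0682 by edgeR).

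Among the effectors, PTGS2 (cyclooxygenase-2), the inducible enzyme of prostaglandin synthesis, stood at 19.2, 30.4, 33.2 and 35.8 CPM in post-hypoxic SCC154, against 7.08, 5.52, 7.72, 7.43 and 7.48 CPM in post-hypoxic FADU. In non-hypoxic cells it averaged 32.9 ± 5.08 CPM in SCC154 (SD, n = 5) and 5.13 ± 2.99 CPM in FADU (SD, n = 4). The lines did not overlap, and the log2 fold change was 2.06 (SE 0.24, adjusted p = 7.79e-08 by edgeR) in post-hypoxic and 2.66 (SE 0.27, adjusted p = 6.19e-09) in non-hypoxic cells. ICAM1, the leukocyte adhesion molecule, did not pass: its log2 fold change was 0.02 (95% interval -0.62 to 0.66) in post-hypoxic and 0.07 (-0.61 to 0.74) in non-hypoxic cells.

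The complement component C3 was higher in SCC154, with 41.8, 20.9, 20.1 and 11.3 CPM in post-hypoxic SCC154 against 2.18, 0.920, 0, 0 and 0.440 CPM in post-hypoxic FADU. The non-hypoxic levels of C3 were 30.1, 22.2, 7.48, 11.3 and 5.80 CPM in SCC154, against 4.28, 0.871, 0 and 0 CPM in FADU. The lines did not overlap, and replicate 1 was the highest FADU library in both fractions. The log2 fold change was 5.08 (SE 0.71, adjusted p = 1.1e-06 by edgeR) in post-hypoxic cells and 3.47 (SE 0.71, adjusted p = 0.000152) in non-hypoxic cells. FADU replicate 1 held 9 of the 11 non-hypoxic FADU counts of C3. Without replicate 1 the values were 5.93 in post-hypoxic and 5.33 in non-hypoxic cells.

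The acute-phase apolipoproteins SAA1 and SAA2 and the cytokine IL32 were detected in every SCC154 library and in few FADU libraries. SAA2 had 64 counts in post-hypoxic SCC154 and 0 in post-hypoxic FADU, at least 26.6-fold higher, and the ratio of non-hypoxic SCC154 to non-hypoxic FADU, 67 counts to 1, was 52.4 (exact 95% counting interval 9.09 to 2102). SAA1 had 57 counts in post-hypoxic SCC154 and 1 in post-hypoxic FADU, a ratio of 71.0 (12.2 to 2851). These 3 contrasts passed (adjusted p = 1.11e-06, 1.64e-05 and 1.15e-05 by edgeR), and the single FADU counts of SAA1 and SAA2 came from replicate 1. SAA1 in non-hypoxic cells overlapped between the lines (1.30 CPM in the lowest SCC154 and 2.38 CPM in the highest FADU library), with a log2 fold change of 2.96 (SE 0.70, adjusted p = 0.000691 by edgeR), and 4.79 without FADU replicate 1, which held 5 of its 6 counts.

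IL32 had ratios of 34.9 (5.76 to 1425) in post-hypoxic and 21.9 (5.79 to 185) in non-hypoxic cells (adjusted p = 2.94e-05 and 8.24e-06 by edgeR), and its 3 FADU counts all came from replicate 1 of a fraction. SAA1 shared 9.96% of its last 50-base words with SAA2 and IL32 shared 31.9% with RNU1-125P. The 3′ ends of LIF, ICAM1 and IL32 overlapped a gene on the other strand, and that of SAA2 the readthrough gene SAA2-SAA4, so reads of these genes are uncertain. That of CXCL6 overlapped the pseudogene PPBPP1 on the same strand. Both had 0 counts in each line, and how reads matching both were counted is not given, so the 0 of CXCL6 is uncertain too.

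**Figure D2:**
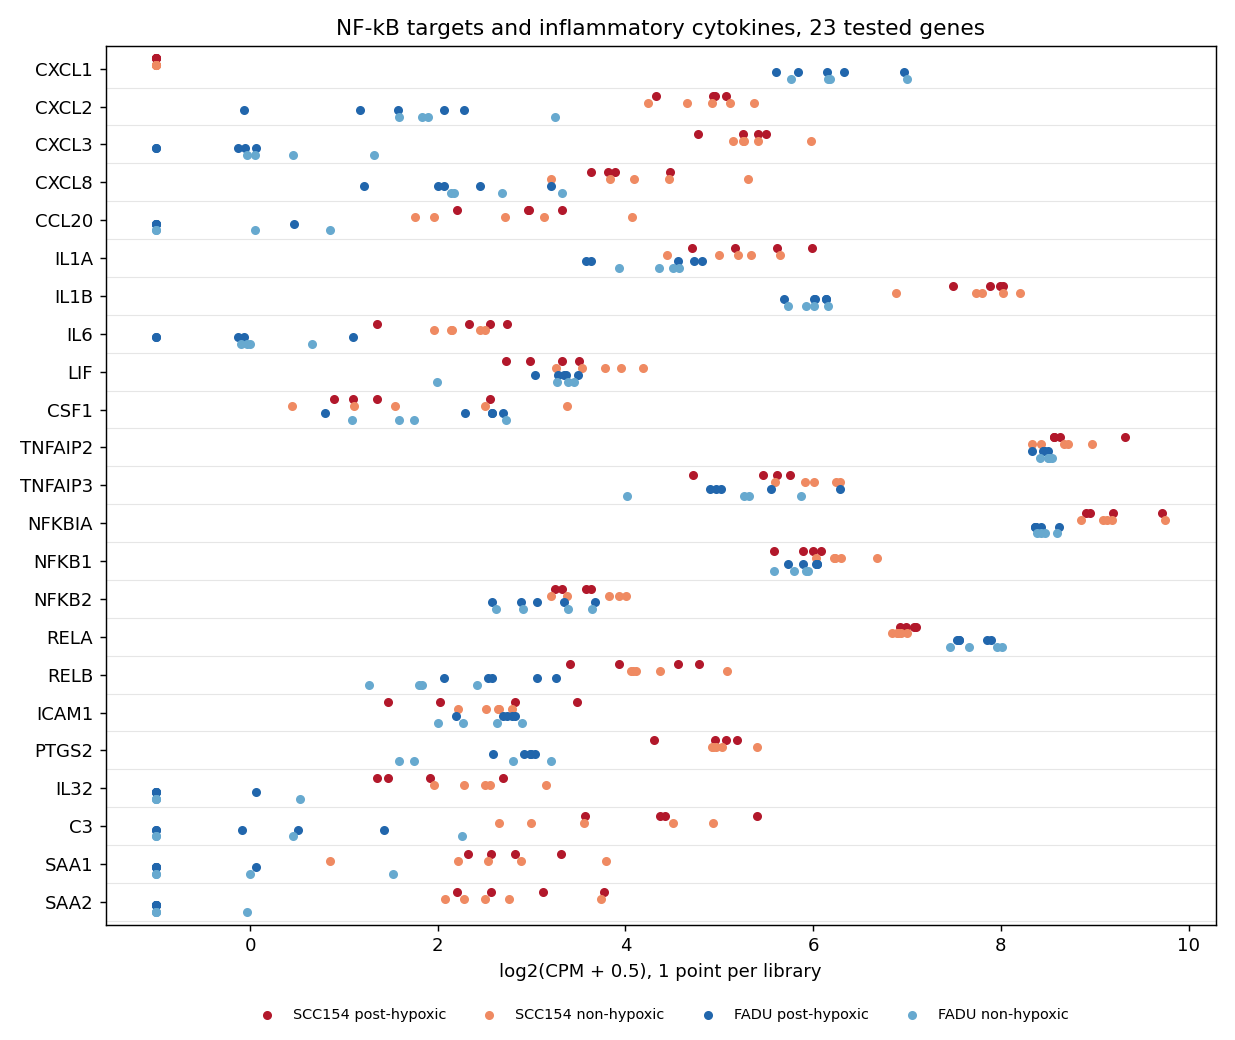
Level of the 23 tested genes, as log2(CPM + 0.5), in each of the 18 libraries; each point is 1 library, coloured by group, and the leftmost position is a count of 0. All SCC154 points lie to the right of all FADU points for CXCL2, CXCL3, CCL20, IL1B, IL6, NFKBIA, RELB, PTGS2, IL32, C3 and SAA2. They lie to the left for CXCL1 and RELA. The lines overlap for CXCL8, IL1A, LIF, CSF1, TNFAIP2, TNFAIP3, NFKB1, NFKB2, ICAM1 and SAA1.

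Over the 23 tested genes, 17 passed between the post-hypoxic lines, 15 higher and 2 lower in SCC154, where 69.7% of all genes passed (34.8% higher and 34.9% lower). Between the non-hypoxic lines 19 passed, 17 higher and 2 lower, where 68.9% of all genes passed (34.5% in each direction). The shares among the 23 were 73.9% and 82.6%, and the excess of higher calls is to be read beside the 8 genes that passed the filter through SCC154 alone. Of the 13 genes that passed the filter in both lines, 8 (61.5%) passed between post-hypoxic groups, 7 higher and 1 lower (median log2 fold change 0.36). Of the 10001 genes that passed the filter in both lines, 66% passed there, 3095 higher and 3507 lower (median -0.045). Between non-hypoxic groups 10 of the 13 (76.9%) passed, 9 higher and 1 lower (median 0.76). There 65.2% of the 10001 genes passed, 3061 higher and 3455 lower (median -0.058). Over all genes tested the medians were 0.01 and -0.01. Post-hypoxic groups did not overlap in 16 of the 23, 14 higher and 2 lower, where 57.3% of all genes did not (28.7% higher and 28.6% lower). Non-hypoxic groups did not overlap in 14, 12 higher and 2 lower, where 56.5% of all genes did not (28.6% higher and 27.8% lower). Over all 9 libraries of each line, 13 of the 23 did not overlap, 11 higher and 2 lower in SCC154, beside 43.4% of all genes (22.1% higher and 21.3% lower). CXCL1 and RELA were the 2 that were lower. Of the 13 without overlap, CXCL1 passed the filter through FADU alone, and CXCL2, CXCL3, CCL20, IL6, IL32, C3 and SAA2 through SCC154 alone. Such genes were favoured not to overlap, so the counts without overlap are also a description. IL1B, NFKBIA, RELA, RELB and PTGS2 were those of the 13 without overlap that passed the filter in both lines. No share without overlap was taken for the 10001 genes that did so, and the listed genes were chosen with earlier results known. These genes are therefore a description too.

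**Figure D3:**
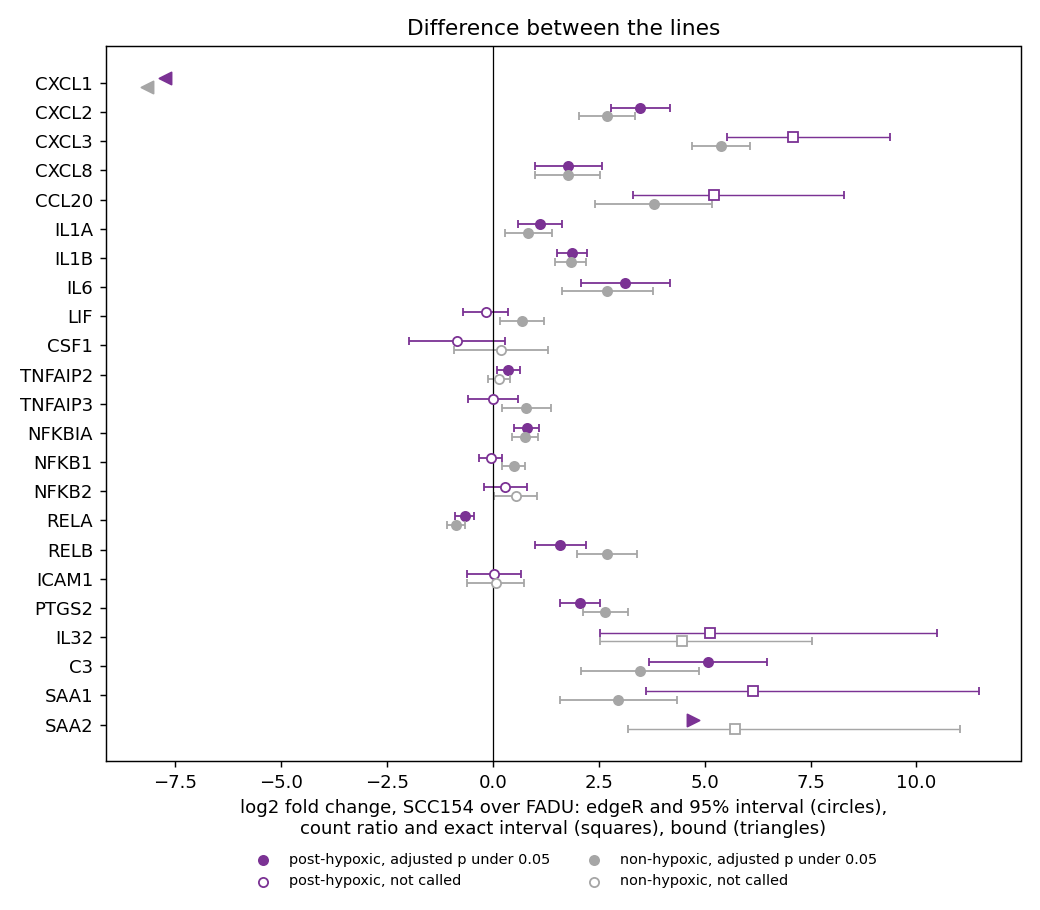
Log2 fold change of SCC154 over FADU (horizontal axis) for the 23 tested genes in post-hypoxic and non-hypoxic cells: circles are edgeR estimates with 95% intervals, filled where the adjusted p was under 0.05; squares are count ratios with exact 95% intervals where FADU had 1 to 3 counts; triangles are bounds where a group had 0 counts. All but CXCL1 and RELA among the called genes lie to the right of 0, from 0.36 for TNFAIP2 in post-hypoxic cells upward.

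Within each line, the comparison of sorted fractions asked whether a past of low oxygen left a difference in these genes after normoxic culture. In SCC154 0 of the 23 passed between post-hypoxic and non-hypoxic cells, beside 93 of 12291 genes (0.757%), 41 higher (0.334%) and 52 lower (0.423%); with upper-quartile factors these were 70 genes, 40 of them higher. None of the 23 had groups without overlap, beside 5.55% of all genes (2.56% higher and 2.99% lower), and their median log2 fold change was -0.06 beside 0.00 over all genes. Without a replicate block, DESeq2 and limma voom also called 0 of the 23. With the replicate number as a block inside each line, 2 of the 23 passed, beside 1052 genes in all. These were C3 (log2 fold change 1.00, adjusted p = 0.0029 by edgeR) and TNFAIP3 (-0.54, adjusted p = 0.0143). A block common to both lines called C3 alone of the 23 (1.11, adjusted p = 0.019 by edgeR), beside 243 genes. The labels do not say that SCC154 numbers pair the libraries. At an unadjusted p under 0.05 in edgeR without a block there were 3 of the 23, beside 1930 of the 12291 genes. Each of the 3 had its mean lower in post-hypoxic SCC154. NFKB1 had 59.0, 67.4, 47.6 and 63.5 CPM in post-hypoxic SCC154, against 102, 74.4, 78.2, 64.6 and 74.2 CPM in non-hypoxic SCC154, a log2 fold change of -0.41 (SE 0.14, adjusted p = 0.148 by edgeR).

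LIF had 6.14, 9.55, 7.38 and 10.9 CPM in post-hypoxic SCC154, against 17.8, 11.1, 13.2, 9.11 and 14.9 CPM in non-hypoxic SCC154 (-0.65, SE 0.26, adjusted p = 0.226 by edgeR). TNFAIP3 had 25.8, 43.6, 48.4 and 53.5 CPM in post-hypoxic SCC154, against 77.5, 47.8, 59.8, 63.8 and 75.0 CPM in non-hypoxic SCC154 (-0.60, SE 0.29, adjusted p = 0.313 by edgeR). In each of the 3 the groups overlapped. For the abundant transcripts the intervals were narrow: the log2 fold change of NFKBIA was 0.00 (95% interval -0.30 to 0.29), that of IL1B 0.07 (-0.27 to 0.41) and that of RELA 0.11 (-0.12 to 0.34). Those of CXCL2 (-0.06, -0.56 to 0.45) and CXCL3 (-0.19, -0.56 to 0.19) leave out a change of 2-fold in either direction. CXCL1 had no count in either SCC154 fraction.

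In FADU 0 of the 23 passed, as did 0% of all genes by edgeR; at an unadjusted p under 0.05 there were 298 genes in all, DESeq2 called 3, limma voom 0, and edgeR with the replicate number as a block called 7 genes, none of them among the 23. The median log2 fold change of the 23 was -0.05, beside 0.00 over all genes, and none had groups without overlap (1.07% of all genes had, 0.561% higher and 0.504% lower). RELB alone was under an unadjusted p of 0.05, with 5.45, 3.68, 9.08, 7.84 and 5.28 CPM in post-hypoxic FADU against 1.90, 3.05, 2.99 and 4.85 CPM in non-hypoxic FADU (log2 fold change 0.99, SE 0.42, adjusted p = 1 by edgeR). CXCL1 averaged 75.8 ± 29.7 CPM in post-hypoxic FADU (SD, n = 5) and 81.1 ± 32.2 CPM in non-hypoxic FADU (SD, n = 4), a log2 fold change of -0.11 (95% interval -0.62 to 0.41). That of IL1B was 0.04 (-0.34 to 0.42), and that of NFKBIA was -0.04 (-0.34 to 0.27).

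**Figure D4:**
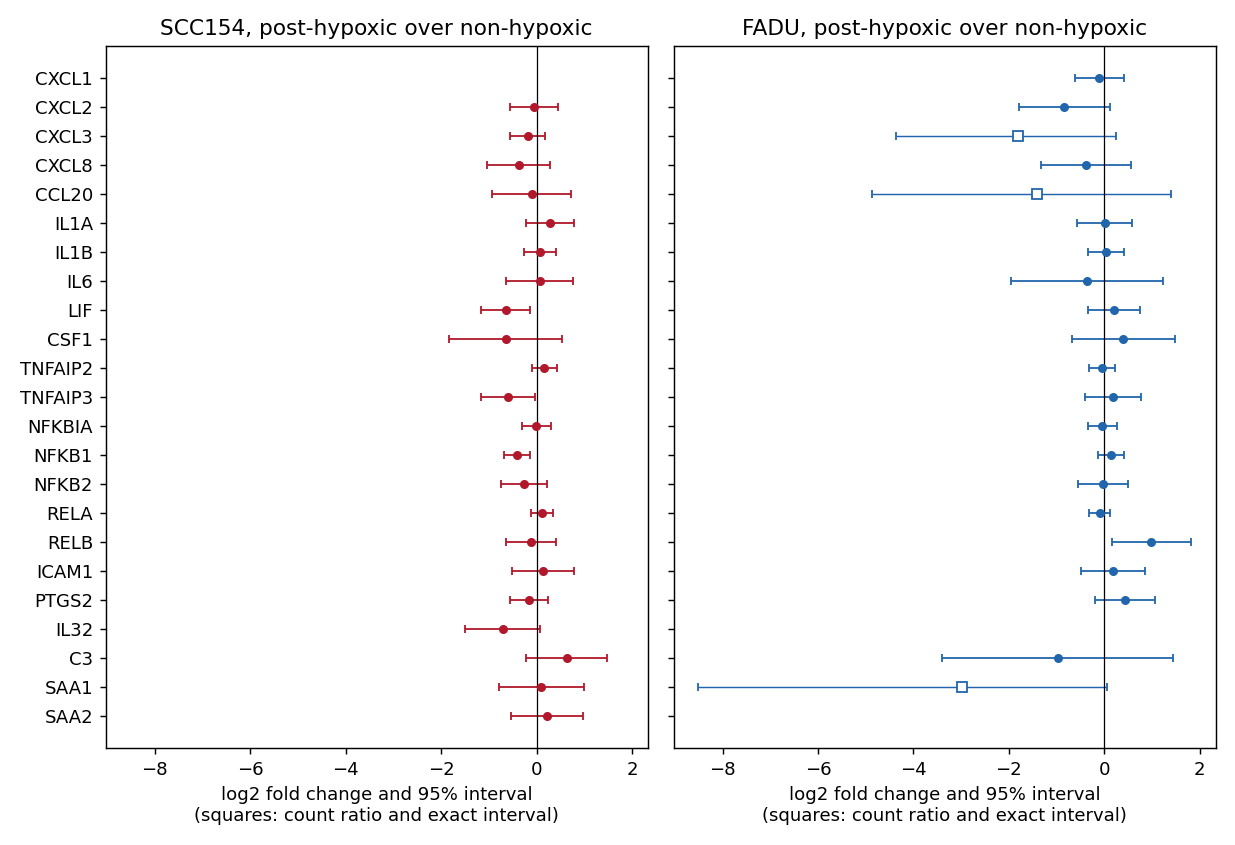
Log2 fold change of post-hypoxic over non-hypoxic cells (horizontal axis) with 95% intervals for the tested genes in SCC154 (left) and FADU (right); squares are count ratios with exact 95% intervals where a group had 1 to 3 counts, and genes at or under 3 counts in both groups are left out (CXCL1 in SCC154, IL32 and SAA2 in FADU). No gene shown passed in either line in this fit, which holds no replicate block. The widest intervals belong to CXCL3, CCL20, C3 and SAA1 in FADU, which had few counts.

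The difference of the post-hypoxic changes between the lines, SCC154 minus FADU, was tested as an interaction in the same fit, and shares its libraries with the within-line comparisons. By edgeR 0 of the 23 passed, as by DESeq2 and limma voom, beside 2 of 12291 genes (0.0163%). An unadjusted p under 0.05 was reached by 3 of the 23, beside 1202 of the 12291 genes. NFKB1 had a difference of -0.55 on the log2 scale (SE 0.20, adjusted p = 0.367 by edgeR), LIF of -0.86 (SE 0.38, adjusted p = 0.484) and RELB of -1.10 (SE 0.50, adjusted p = 0.484). LIF, TNFAIP3 and NFKB1 were called between the lines in non-hypoxic and not in post-hypoxic cells, and TNFAIP2 the other way round. The tests just given for LIF and NFKB1 are those of the difference between the fractions. For TNFAIP3 it was -0.79 (SE 0.42, adjusted p = 0.541 by edgeR) and for TNFAIP2 0.22 (SE 0.19, adjusted p = 0.735), so none of the 4 differences passed in this fit, which holds no replicate block. With a block inside each line the difference of TNFAIP3 passed (-0.85, adjusted p = 0.0327 by edgeR), beside 224 genes in all.

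Other genes of the pathway were taken from lists, which were chosen with earlier results of these data known. Their shares are therefore a description. Of 37 genes of the NF-kB machinery (inhibitors, kinases, adaptors and REL), 31 were tested and 20 passed between the post-hypoxic lines, 13 higher and 7 lower in SCC154, with a median log2 fold change of 0.08. Between the non-hypoxic lines 19 passed, 13 higher and 6 lower, with a median of 0.05. These shares, 64.5% and 61.3%, are near the 69.7% and 68.9% of all genes. Of the machinery genes named here, BIRC3, a ubiquitin ligase of the TNF receptor complex and an NF-kB target, had the largest fold change. It stood at 375 CPM in post-hypoxic SCC154 and 7.30 CPM in post-hypoxic FADU (log2 fold change 5.66, SE 0.16, adjusted p = 1.65e-18 by edgeR). Its relative BIRC2 stood at 525 CPM in post-hypoxic SCC154 and 59.4 CPM in post-hypoxic FADU (3.14, SE 0.09). CYLD, a deubiquitinase that restrains the pathway, was higher by 1.17 (SE 0.12).

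The kinases that release NF-kB from its inhibitors were lower in post-hypoxic SCC154: CHUK (IKK-alpha) had a log2 fold change of -0.81 (SE 0.16) and IKBKB (IKK-beta) of -0.56 (SE 0.13). The related kinase gene TBK1 had -0.46 (SE 0.12). In non-hypoxic cells the values were 6.07 for BIRC3, 3.06 for BIRC2, 1.43 for CYLD, -0.74 for CHUK, -0.61 for IKBKB and -0.64 for the adaptor TAB1. REL, the remaining subunit gene, singled out after its values were seen, was higher in SCC154 by 0.89 (SE 0.13, adjusted p = 1.96e-06 by edgeR) in post-hypoxic and 1.02 (SE 0.13, adjusted p = 4.02e-07) in non-hypoxic cells.

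Of 33 receptors and antagonists, 14 were tested and 9 (64.3%) passed in each fraction, 6 higher and 3 lower, beside 69.7% of all genes in post-hypoxic and 68.9% in non-hypoxic cells, with medians of 0.12 in post-hypoxic and 0.07 in non-hypoxic cells. OSMR, the oncostatin M receptor, stood at 85.5 CPM in post-hypoxic SCC154 and 8.64 CPM in post-hypoxic FADU (log2 fold change 3.27, SE 0.19, adjusted p = 4.71e-13 by edgeR), and IL6ST (gp130) at 79.0 CPM in SCC154 and 22.3 CPM in FADU (1.82, SE 0.19). CD40, a TNF-family receptor that feeds the alternative pathway, was higher by 1.93 (SE 0.18). Lower were LIFR (-0.58, SE 0.21), the interleukin-1 co-receptor IL1RAP (-0.51, SE 0.19) and the receptor antagonist IL1RN, at 53.3 CPM in post-hypoxic SCC154 and 77.5 CPM in post-hypoxic FADU (-0.55, SE 0.16, adjusted p = 0.00424 by edgeR). In non-hypoxic cells OSMR had 2.80, IL6ST 2.34, CD40 1.85, IL1RN -0.65, LIFR -0.50 and the lymphotoxin receptor LTBR -0.35, all called. CXCR1 had 0 counts and CXCR2 at most 3 counts in any group.

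Of 34 further NF-kB target genes, 22 were tested and 21 (95.5%, beside 69.7% and 68.9% of all genes) passed in each fraction, 18 higher and 3 lower in SCC154, with medians of 1.86 in post-hypoxic and 2.13 in non-hypoxic cells. As above, genes that passed the filter through SCC154 alone were favoured to differ. The choice of the list with earlier results known also bears on the shares below, in both sets of genes. Of the 13 that passed it in both lines, 12 were called in each fraction, 11 higher and 1 lower, beside 66% in post-hypoxic and 65.2% in non-hypoxic cells of the 10001 genes that did so. The stress gene GADD45B stood at 233 CPM in post-hypoxic SCC154 and 14.99 CPM in post-hypoxic FADU (log2 fold change 3.95, SE 0.13, adjusted p = 2.19e-17 by edgeR). PLAUR, the urokinase receptor, stood at 203 CPM in SCC154 and 23.4 CPM in FADU (3.12, SE 0.13), and the transcription factor IRF1 at 148 CPM in SCC154 and 34.5 CPM in FADU (2.09, SE 0.11). IL18, an epithelial cytokine of the interleukin-1 family, was lower, at 10.4 CPM in post-hypoxic SCC154 and 72.9 CPM in post-hypoxic FADU (-2.79, SE 0.24, adjusted p = 5.2e-10 by edgeR).

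The death ligand gene TNFSF10 (TRAIL) was also lower in SCC154 (-1.75, SE 0.42), and PDPN (podoplanin) had 0 counts in post-hypoxic SCC154 and 68 in post-hypoxic FADU, at least 18.2-fold lower. In non-hypoxic cells GADD45B had 4.28, PLAUR 3.68, IRF1 2.12, IL18 -1.88 and TNFSF10 -1.97.

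All 12 partners of NF-kB from the AP-1, C/EBP and STAT3 group were tested, and 9 (75%, beside 69.7% and 68.9% of all genes) passed in each fraction, 8 higher and 1 lower, with medians of 0.72 in post-hypoxic and 0.96 in non-hypoxic cells. JUND was higher by 1.83 (SE 0.17), FOSL2 by 1.52 (SE 0.16) and the STAT3 feedback inhibitor SOCS3 by 1.65 (SE 0.17) in post-hypoxic SCC154. The AP-1 subunit FOSL1 was the lower one, at 17.2 CPM in post-hypoxic SCC154 and 105 CPM in post-hypoxic FADU (-2.57, SE 0.24, adjusted p = 2.48e-09 by edgeR). In non-hypoxic cells JUND had 1.96, JUNB 1.05, STAT3 0.93 and FOSL1 -2.59.

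Of 9 genes of interleukin-1 processing, 7 were tested, and 6 (85.7%, beside 69.7% of all genes) were called in post-hypoxic and 5 (71.4%, beside 68.9%) in non-hypoxic cells, all higher in SCC154, with medians of 0.61 and 0.74. The 6 that passed the filter in both lines leave out NLRP1, at 0.903 CPM in post-hypoxic and 1.13 CPM in non-hypoxic FADU. Of these 6, 5 (83.3%) were called in post-hypoxic and 4 (66.7%) in non-hypoxic cells, beside 66% and 65.2% of the 10001 such genes. Called genes included the inflammasome sensor NLRP1 (3.99, SE 0.34, in post-hypoxic and 3.64, SE 0.36, in non-hypoxic cells), the pore-forming GSDMD (2.19, SE 0.21, and 2.01, SE 0.22) and the caspase gene CASP4 (1.67, SE 0.15, and 1.65, SE 0.15). The genes with these values all passed in edgeR's test. Between post-hypoxic and non-hypoxic cells, and in the difference of these changes, 0 of the 86 tested genes of the 5 pathway lists passed in edgeR, with list medians between -0.10 and 0.12. At an unadjusted p under 0.05 there were 10 in SCC154, 1 in FADU and 7 for the difference. Over all 12291 genes these counts were 1930, 298 and 1202. DESeq2 and limma voom each called 1, SOCS3 in SCC154 (adjusted p = 0.038 by DESeq2 and 0.0495 by limma voom, against 0.0736 by edgeR), and 0 in FADU and for the difference. SOCS3, named here after its values were seen, had a log2 fold change of 0.59 in post-hypoxic over non-hypoxic SCC154.

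**Figure D5:**
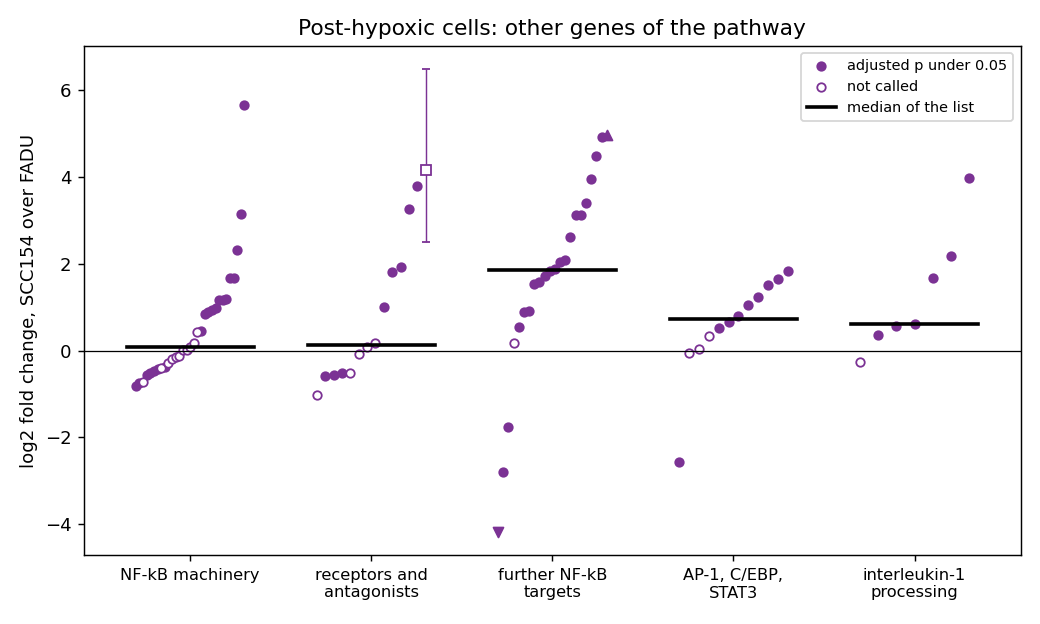
Log2 fold change of post-hypoxic SCC154 over post-hypoxic FADU (vertical axis) for the tested genes of the 5 pathway lists; each circle is 1 gene, filled where the adjusted p was under 0.05, triangles are bounds for genes with 0 counts in a group, the square is a count ratio with its exact 95% interval (3 FADU counts), and the horizontal bar is the list median. The machinery and receptor lists centre near 0 (medians 0.08 and 0.12), and the further NF-kB targets lie mostly above it (median 1.86). The lists were chosen with earlier results of these data known.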

How the data were processed

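RNA of 18 libraries was sequenced with the QuantSeq 3′ mRNA kit. The authors deposited 1 table of whole-number counts per gene symbol, without normalization. HISAT2 2.2.1 is listed with hg38 in the submitters' processing notes, as are Trimmomatic 0.39, FastQC 0.11.9, featureCounts 1.5.1, UMI-tools 1.1.5 and DESeq2, with no role or order. The settings, the annotation, the strandedness and how multi-mapping reads were handled were not given in the sources used here. Without the strand setting, reads of genes overlapping on opposite strands could not be told apart.

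Counts were analysed in R 4.3.3 with edgeR 4.0.16: TMM factors, filterByExpr with the 4 groups, 1 quasi-likelihood fit of 4 group means over all 18 libraries (14 residual degrees of freedom, common biological coefficient of variation 0.148), and Benjamini-Hochberg adjustment over 12291 genes with a threshold of 0.05. A gene that passed is called. The SE is the log2 fold change divided by the square root of F, and 95% intervals of fold changes are normal intervals from it. For bounds, a group without a count was given 3. Ratios to groups of 1 to 3 counts carry an exact binomial interval. Both cover counting error only. Of 32 replicate pairs, none matched within sampling noise (chi-square per degree of freedom 1.84 to 11.7 over genes with a summed count of at least 20), so each library was counted singly. Same-numbered FADU libraries deviated together (correlation 0.18 to 0.45 in 4 pairs), and in SCC154 3 of 4 pairs did by more than 0.1. Pairs of different numbers overlapped these ranges, at -0.43 to 0.24 in FADU and -0.40 to 0.20 in SCC154. The numbers come from the titles. The fit was tested on simulated counts.

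The genes and lists were chosen with earlier results of these data known. All 30 genes were named, and of each list up to 3 called genes per direction and fraction, by adjusted p, with at least 5 CPM in a group. Alternatives were other size factors, other filters, DESeq2 1.42.0, limma 3.58.1 voom, replicate blocks, fits of 2 groups alone and leaving out each library. Gene positions are from GENCODE v29 and promoters from RefSeq.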

Additional observations from a re-analysis of the deposited data

Results flagged for a closer look

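Within groups of 4 or 5 libraries, the gap between the highest or lowest library and the nearest other one was set against the whole range of the group (Dixon's criterion). This was done for 76 groups of a gene with at least 20 counts, and chance gives a hit in about 1 of 20. It was exceeded 10 times, and no explanation was tested for any of them. In SCC154, TNFAIP2 had 638 CPM in post-hypoxic replicate 3, against 378 to 396 CPM in the others. Non-hypoxic SCC154 replicate 1 had 62.7 CPM of CXCL3 (others 34.8 to 42.1 CPM) and 12.8 CPM of SAA2 (others 3.73 to 6.28 CPM). RELB had 33.4 CPM in non-hypoxic SCC154 replicate 4 (others 16.2 to 20.1 CPM), and PTGS2 had 41.9 CPM in replicate 5 (others 29.9 to 32.1 CPM).

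In FADU, post-hypoxic replicate 2 was low in TNFAIP2, with 321 CPM (others 350 to 361 CPM), and in PTGS2, with 5.52 CPM (others 7.08 to 7.72 CPM). Post-hypoxic FADU replicate 3 had 4.09 CPM of ICAM1 (others 5.99 to 6.60 CPM), and post-hypoxic replicate 5 had 393 CPM of NFKBIA (others 328 to 343 CPM). CXCL2 had 9.03 CPM in non-hypoxic FADU replicate 1, against 2.50 to 3.24 CPM in the others.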

How the results depend on the processing

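Under 27 other settings (26 between the lines), 18 of which leave out a library, no result of the 23 tested genes changed sign while called and still tested. The calls between the lines stayed at 13 to 18 of 23 in post-hypoxic and 14 to 20 in non-hypoxic cells (16 to 17 and 17 to 20 when 1 library was left out); the lowest counts came from fits of the 2 groups alone. Among genes still tested, LIF, TNFAIP3 and TNFAIP2 were the only ones to lose a call between the lines when a library was left out (IL32 fell below the filter without SCC154 non-hypoxic replicate 1, 3 or 5), while NFKB2 in non-hypoxic cells passed in 3 such fits. In SCC154, post-hypoxic against non-hypoxic, the number of genes called over the whole table was 93, and 291 with no filter, 207 with DESeq2, 22 in a fit of the 2 groups alone and 20 to 190 when 1 library was left out (20 without SCC154 post-hypoxic replicate 4 or non-hypoxic replicate 2, 190 without post-hypoxic replicate 5). In FADU it was 0, and 10 with no filter, 3 with DESeq2 and 0 to 1 when 1 library was left out (1 without FADU post-hypoxic replicate 1). For the difference of the changes it was 2, and 51 with no filter and 21 with DESeq2. Blocking on the number inside a line, the counts were 1052 in SCC154, 7 in FADU and 224 for the difference. With that replicate block 2 of the 23 passed in SCC154 (log2 fold change of C3 1.00, adjusted p = 0.0029; TNFAIP3 -0.54, adjusted p = 0.0143 by edgeR) and 1 in the difference (TNFAIP3 -0.85, adjusted p = 0.0327 by edgeR). A replicate block common to both lines gave 243 genes in SCC154, 1 of the 23 among them (C3 1.11, adjusted p = 0.019 by edgeR), and 5 for the difference. The labels do not say that SCC154 numbers pair the libraries (same-number correlations 0.03 to 0.40). The cause of these shifts was not tested. Depth limits CXCL5, CXCL6, CCL2, CSF2, TNF, CSF3 and IL36G, and the FADU levels of CXCL3, CCL20, IL6, IL32, C3, SAA1 and SAA2, where a few counts set the value. For CXCL6, the overlap of its 3′ end with PPBPP1 is a further limit.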
